A study of Homo sapiens with 10 samples.

Results

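The forkhead transcription factor genes were examined in MDAMB231 cells, a triple-negative breast cancer line. Members, called the family below, were 43 of the 20144 protein-coding genes of GENCODE release 44 on GRCh37, each with a symbol of FOX followed by a letter from A to S and a number. The cells were grown in DMEM with serum, and ChIP-seq for H3K4me1, H3K4me3 and H3K27Ac and FAIRE-seq were performed with 2 samples each beside 2 input samples, 10 samples in all. Each assay gave a single list of peaks from its combined samples, so no value has a replicate error and no test between conditions could be made. The lists held 18019 H3K4me3, 37495 H3K27Ac, 26771 H3K4me1 and 46552 FAIRE peaks. They give peaks and no read counts, so read depth at a gene was not known, and a gene without a peak had no peak called there and may still carry the mark.

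Forkhead proteins bind DNA through a winged-helix domain that recognises variants of TGTTTAC, and several of them open closed chromatin for other factors. Most members are developmental regulators used in few tissues, whereas FOXO1, FOXO3, FOXO4, FOXK1, FOXK2, FOXP1, FOXN2, FOXN3 and FOXJ3 are expressed widely and FOXM1 is expressed in dividing cells. H3K4me3 marks promoters, H3K27Ac marks active promoters and enhancers, H3K4me1 away from promoters marks enhancers, and FAIRE recovers DNA depleted of nucleosomes.

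The promoter sequences of 2 members are shown because they lie far apart in CpG content and in marks, with the widest H3K4me3 peak of the family at FOXQ1 and no peak at FOXP3. Each runs 5' to 3' on the strand of the gene over 300 bases of GRCh37, from 250 bases before the main start site to 50 bases into the first exon, with CpG dinucleotides in capitals. The main start site is that of the canonical transcript in the annotation.
FOXQ1 (chr6:1312083-1312382, plus strand): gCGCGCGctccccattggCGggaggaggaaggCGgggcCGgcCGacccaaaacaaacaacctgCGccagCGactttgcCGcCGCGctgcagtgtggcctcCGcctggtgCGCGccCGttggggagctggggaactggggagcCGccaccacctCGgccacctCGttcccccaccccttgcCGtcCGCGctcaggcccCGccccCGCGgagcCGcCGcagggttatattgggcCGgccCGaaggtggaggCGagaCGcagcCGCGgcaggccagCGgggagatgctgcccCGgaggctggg
FOXP3 (chrX:49121123-49121422, minus strand): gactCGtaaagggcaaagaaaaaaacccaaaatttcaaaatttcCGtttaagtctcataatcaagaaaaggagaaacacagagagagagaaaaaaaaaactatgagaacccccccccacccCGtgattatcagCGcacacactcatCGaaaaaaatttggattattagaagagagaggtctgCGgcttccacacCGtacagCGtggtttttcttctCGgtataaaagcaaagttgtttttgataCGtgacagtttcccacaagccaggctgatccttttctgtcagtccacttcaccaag
These stretches held 35 and 10 CpG dinucleotides respectively, against a median of 23 over all coding genes.

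Most forkhead promoters were CpG-rich. Over 1 kb on each side of the main start site the ratio of observed to expected CpG had a median of 0.77 among the 43 members and 0.63 among all coding genes, and the ratio was 0.6 or more for 36 members (83.7%) and for 55.9% of all coding genes. Members with H3K4me3 at the main start had a median ratio of 0.78 and those without had 0.76, whereas over all coding genes these medians were 0.70 and 0.28. The CpG-rich share was nevertheless higher among members with the mark (95.7%) than without it (70.0%), as was the lower quartile of the ratio (0.71 and 0.44). Over all coding genes these shares lay farther apart (76.3% and 19.3%), with lower quartiles of 0.61 and 0.19. The 36 CpG-rich forkhead promoters included 22 with H3K4me3 (61.1%), and 87.6% of the CpG-rich promoters of all coding genes had the mark. The 14 that lacked it were FOXB1, FOXB2, FOXC2, FOXD1, FOXD4, FOXE1, FOXE3, FOXF1, FOXI2, FOXI3, FOXL1, FOXL2, FOXL3 and FOXR1. The highest ratio of the family, 1.02, belonged to FOXI3, which had no peak in its neighbourhood.

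**Figure D1:**
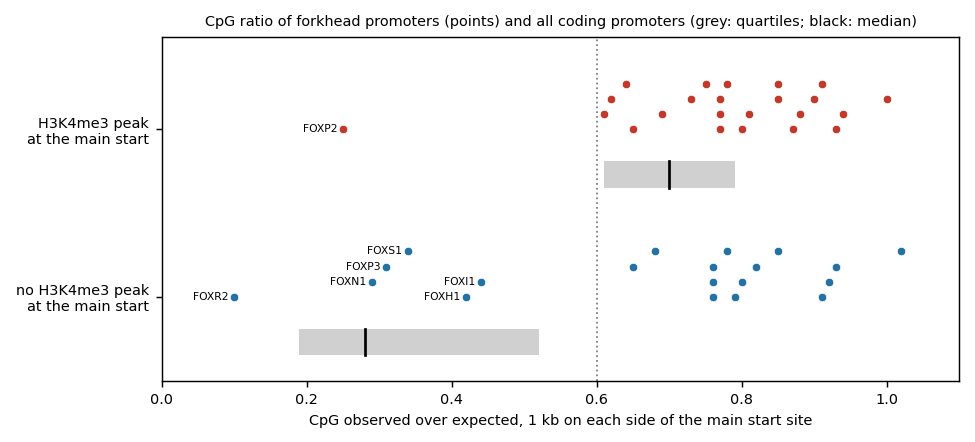
CpG ratio (observed over expected, horizontal axis) over 1 kb on each side of the main start of each forkhead gene (points), by H3K4me3 at that start; grey bars give the quartiles and black lines the medians of all coding genes. Members without H3K4me3 had a median of 0.76, where all coding genes without it had 0.28, and the 7 members under the dotted line at 0.6 are named.

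The 7 CpG-poor members were FOXH1, FOXI1, FOXN1, FOXP2, FOXP3, FOXR2 and FOXS1. Of these, FOXP2 alone had H3K4me3 at its main start, which is an internal promoter of the gene with a ratio of 0.25. The forkhead motif TGTTTAC, searched together with its reverse complement GTAAACA, was found in the 300 bases around the main start of 1 member, FOXO4, in which it began 24 bases into the first exon on the minus strand. This was 2.33% of members, and 2.45% of all coding promoters of the same length held a match.

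Promoters were then compared with the 4 lists, with a promoter taken as 1 kb on each side of any annotated start and a shared base counted as a peak at the promoter. H3K4me3 was present at 23 of 43 members (53.5%), against 67.2% of all coding genes. H3K27Ac was present at 21 members (48.8%), against 63.3%. FAIRE peaks were present at 11 members (25.6%), against 39.3%, and H3K4me1 at 3 members (6.98%), against 20% of them. No promoter peak of any list was found at 18 members (41.9%), against 29.4% of all coding genes. Shares of all 4 lists were thus below those of all coding genes.

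**Figure D2:**
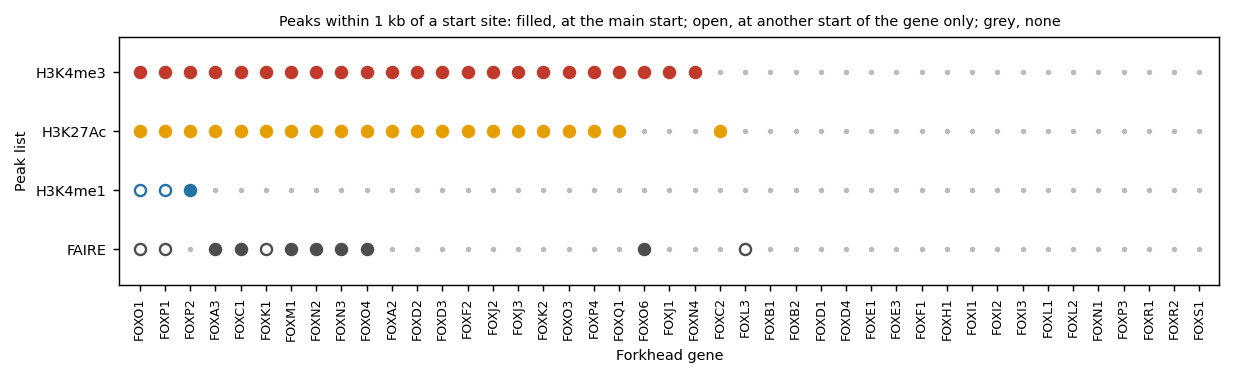
Peaks of the 4 lists (rows) within 1 kb of a start of each of the 43 forkhead genes (columns); filled circles are peaks at the main start, open circles peaks at other starts of the gene only, and grey dots no peak. H3K4me3 and H3K27Ac meet at 20 members, and 18 members have no peak.

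Forkhead genes are short and have few annotated starts. Their median length was 6028 bp and their median number of starts 2, against 27217 bp and 5 over all coding genes. Among genes with 1 start, H3K4me3 was found at 6 of 17 members (35.3%) and at 31.0% of all coding genes. With 2 to 4 starts the shares were 55.6% of 18 members and 55.7%, and with 5 or more starts 87.5% of 8 members and 83.1%. H3K27Ac was found at 35.3%, 44.4% and 87.5% of members in these classes, against 27.9%, 50.8% and 79.6%. H3K4me1 shares were lower than those of all coding genes with 1 start (0% against 6.15%) and with 2 to 4 (5.56% against 13.8%). With 5 or more starts the H3K4me1 shares were nearly equal (2 of 8 members against 3063 of 11359 coding genes). FAIRE shares were lower with 1 start (5.88% against 15.7%) and with 5 or more (37.5% against 51.4%). They were higher with 2 to 4 starts (38.9% against 28.3%). Whether start number accounts for the lower forkhead shares was not tested. The CpG-rich promoters were also split in this way, with H3K4me3 at the main start of 6 of 15 members with 1 start (40.0%, against 69.4%) and of 10 of 15 members with 2 to 4 starts (66.7%, against 81.5%), but of all 6 members with 5 or more starts, against 92.4% of such coding genes.

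All 4 lists met at FOXO1, a FOXO factor restrained by insulin and AKT signalling, and at FOXP1, a repressor of the FOXP group (4.65% of members, against 13.0% of all coding genes). H3K4me3, H3K27Ac and FAIRE met at 7 members, FOXA3, FOXC1, FOXK1, FOXM1, FOXN2, FOXN3 and FOXO4 (16.3%, against 23.4%). H3K4me3, H3K27Ac and H3K4me1 met at FOXP2 (2.33%, against 4.57%). H3K4me3 and H3K27Ac without the other lists were found at 10 members, FOXA2, FOXD2, FOXD3, FOXF2, FOXJ2, FOXJ3, FOXK2, FOXO3, FOXP4 and FOXQ1 (23.3%, against 20.1%). At 3 members H3K4me3 stood without H3K27Ac, with FAIRE at FOXO6 and without it at FOXJ1 and FOXN4. FOXC2 had H3K27Ac alone and FOXL3 a FAIRE peak alone.

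The any-start rule joined peaks that lie far apart in the long genes. At FOXO1 the H3K4me3 peak (4713 bp) and the H3K27Ac peak (4814 bp, score 1687) held the main start, whereas the H3K4me1 peak (score 159.5) and the FAIRE peak (height 48.3) lay at an internal start, 102068 and 102988 bp downstream. With starts of protein-coding transcripts alone, FOXO1 had no promoter H3K4me1 or FAIRE peak. Histone peak scores rise with significance on a log10 scale (a MACS p of 1e-10 has a score of 100). Those of H3K4me3 and H3K27Ac reached a ceiling near 3100, at which 56.8% of H3K4me3 peaks stood, whereas no H3K4me1 peak reached it. At FOXK1, a member of the FOXK pair, the promoter FAIRE peak was 56297 bp downstream of the main start, and a nearer FAIRE peak (height 61.3) lay outside the promoters, in the gene body. When the main start alone was considered, H3K4me3 remained at all 23 members (53.5%, against 64.2% of all coding genes) and H3K27Ac at all 21 (48.8%, against 59.3%), but FAIRE peaks were left at 7 members (16.3%, against 31.3% of all coding genes) and H3K4me1 at FOXP2 alone (2.33%, against 12.3%). H3K4me3 and H3K27Ac thus lay within 1 kb of the main start of every member that had them, and the other 2 lists did not.

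The widest H3K4me3 promoter peak had a median of 3684 bp over the 23 members with one and 2973 bp over 13532 coding genes. Broad H3K4me3, a promoter peak of 5 kb or more, was found at 5 members (11.6%), against 4.24% of all coding genes. The peak of FOXQ1, a factor tied to epithelial-mesenchymal transition in breast cancer, was 7230 bp wide, and 136 coding genes had a wider one. FOXA2, a pioneer factor of endoderm, followed with 7187 bp, and FOXO3 had 7031 bp. FOXP1 had 6347 bp and FOXC1, a mesenchymal regulator expressed in basal-like breast cancer, had 5117 bp, the narrowest above the threshold. FOXP2 (4907 bp), FOXP4 (4764 bp) and FOXO1 (4713 bp) fell just below it. With 4 kb as the threshold, 9 members were counted (20.9%, against 11.5% of all coding genes), FOXK1 with 4001 bp among them. The peak of FOXQ1 reached 1861 bp upstream and 5368 bp downstream of the start, past the end of this gene of 2661 bp, and that of FOXO3 reached farther upstream (4022 bp) than downstream (3008 bp).

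**Figure D3:**
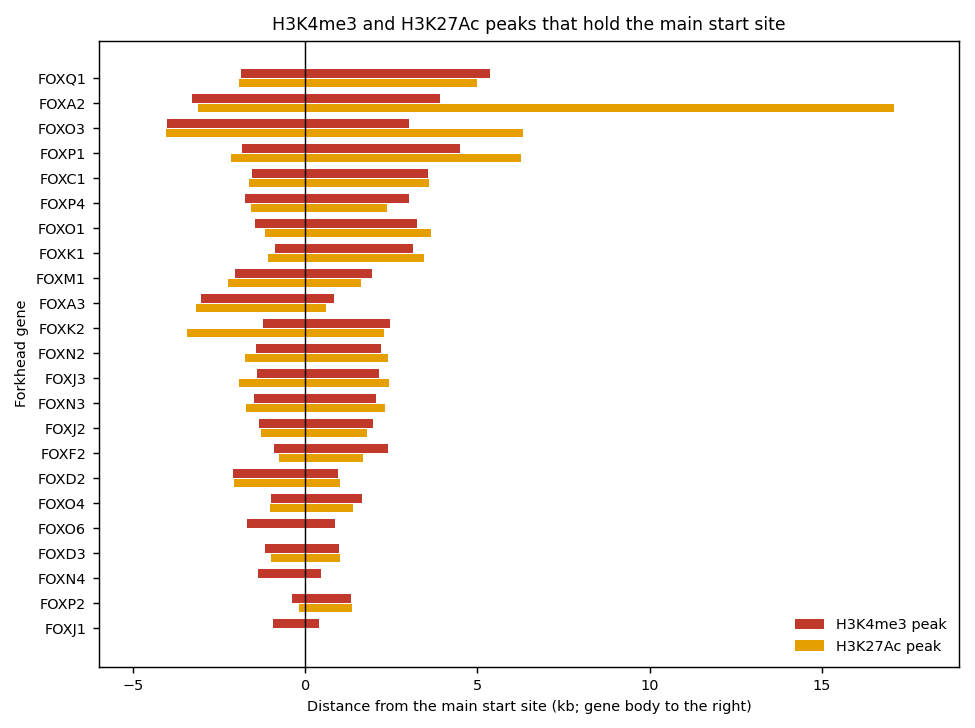
Extent of the H3K4me3 (red) and H3K27Ac (orange) peaks that hold the main start of 23 forkhead genes, as distance from that start in kb with the gene body to the right, ordered by the H3K4me3 peak there. The H3K27Ac peak of FOXA2 runs 17105 bp downstream, and FOXO6, FOXN4 and FOXJ1 have no H3K27Ac peak.

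H3K27Ac was near H3K4me3 in width at FOXQ1 (6915 bp) and FOXC1 (5254 bp) and wider at FOXO3 (10349 bp) and FOXP1 (8430 bp). FOXA2 stood apart with an H3K27Ac peak of 20216 bp, exceeded at 37 coding genes, which ran 17105 bp beyond the start and past the end of the gene. A start of the long noncoding RNA LINC00261 is within 1 kb of this peak, so it could not be assigned to FOXA2 alone. The same limit holds for the H3K4me3 and H3K27Ac peaks of FOXO3 and of the main start of FOXP1. Starts of other long noncoding RNAs are within 1 kb of these. The H3K27Ac peak of FOXA2 met all 3 H3K4me3 peaks of its window and an H3K4me1 peak of 14341 bp (score 112, near the list median of 114). The nearest FAIRE peak to a FOXA2 start lay 7976 bp away. None of the 5 broad members except FOXC1 had a FAIRE peak at the main start, and the FAIRE peak of FOXC1 was low (42.2, against a median height of 61.1 for the list).

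The highest promoter FAIRE peak of the 11 members had a median height of 58.5 and ranged from 40.4 at FOXO4 to 94.8 at FOXA3, against a median of 69.2 over 7908 coding genes. The FOXA3 peak is 547 bp upstream of the main start, at a promoter shared with SYMPK. The H3K4me3 and H3K27Ac promoter peaks of FOXA3 also meet the SYMPK promoter, so these peaks could not be assigned to FOXA3 alone. When FAIRE peaks below the median height of the list were left out, 5 members remained (11.6%, against 24.3% of all coding genes), and with the most upstream start alone 6 of 43 remained (against 30.5%).

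H3K4me3 without H3K27Ac was found at 3 members (6.98%), against 6.03% of all coding genes. When the centre of a peak had to lie in the promoter, 5 members were counted (11.6%, against 8.79%), with FOXA2 and FOXO3 added. The peak of FOXJ1, the regulator of motile cilia, was the narrowest of the family (1327 bp, score 1318), and no H3K27Ac peak was found within 36330 bp. A start of the long noncoding RNA RNF157-AS1 also lies in the FOXJ1 promoter. The peak of FOXN4, a factor of retina and spinal cord, was 1852 bp wide (score 906), with the nearest H3K27Ac peak 130723 bp away. FOXO6, the FOXO gene expressed mainly in brain, had a stronger peak (2548 bp, score 2641) with a FAIRE peak of height 83.7 that ended 421 bp before the main start, and its nearest H3K27Ac peak overlapped the gene, 14241 bp from the closest annotated start. This H3K27Ac peak was at the score ceiling and overlapped a further H3K4me3 peak of 3572 bp, also at the ceiling.

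H3K27Ac without H3K4me3 was found at 1 member (2.33%), against 2.19% of all coding genes. This was FOXC2, a mesenchymal and lymphatic factor related to FOXC1, in which the H3K27Ac peak (3239 bp, score 969) ended 888 bp upstream of the start and was not met by a promoter of 500 bp. FOXL3 had a FAIRE peak of 675 bp and height 58.5 that began 1375 bp downstream of the main start. With starts of protein-coding transcripts alone, this FAIRE peak was not at the promoter. The nearest H3K4me3 peak was 10595 bp from FOXC2 and 24711 bp from FOXL3.

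FOXM1, which drives mitotic gene expression, had H3K4me3 (3969 bp) and H3K27Ac (3878 bp), both at the score ceiling, and a FAIRE peak of height 51.8. These peaks also meet the promoters of RHNO1 and TULP3, so they could not be assigned to FOXM1 alone. FOXO4 had the narrowest H3K4me3 peak of the FOXO genes apart from FOXO6 (2638 bp), and its strongest promoter H3K27Ac peak, with a score of 473, was the weakest of the 21 members. Scores measure significance and depend on depth, so they order peaks within a list and not between lists.

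The 18 members with no promoter peak were FOXB1, FOXB2, FOXD1, FOXD4, FOXE1, FOXE3, FOXF1, FOXH1, FOXI1, FOXI2, FOXI3, FOXL1, FOXL2, FOXN1, FOXP3, FOXR1, FOXR2 and FOXS1. They include the thyroid factor FOXE1, the lens factor FOXE3, the ovarian factor FOXL2, the thymic factor FOXN1 and the regulatory T cell factor FOXP3. Some missed a peak by a short distance. An H3K4me3 peak of 3040 bp lay 1039 bp from FOXH1, at the promoter of PPP1R16A. FOXB1 had H3K4me3 (score 248) 1244 bp and H3K27Ac (score 167) 1238 bp from a start, inside the gene. FOXS1 had H3K27Ac (score 79.6) 1882 bp away, past the end of the gene. FOXD1 had H3K4me3 (score 429) 1988 bp away, near the start of the long noncoding RNA LINC01385, and FOXL2 had H3K4me3 (score 459) 2228 bp away. At FOXP3 the nearest H3K4me3 and H3K27Ac peaks, 3485 and 3380 bp away, were at the promoter of PPP1R3F. Among the 30 H3K4me3 peaks in the windows of these 18 genes, each counted once, 22 were at promoters of other coding genes.

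Neighbouring forkhead genes shared their histone marks in some groups and not in others. On chromosome 6, FOXQ1, FOXF2 (77.5 kb away) and FOXC1 (298 kb away) all had H3K4me3 and H3K27Ac. On chromosome 16, FOXF1, FOXC2 and FOXL1 lie within 68.0 kb and had no H3K4me3, with the H3K27Ac peak of FOXC2 the only promoter peak of the group. On chromosome 1, FOXD2 had H3K4me3 (3059 bp) and H3K27Ac (3075 bp), and FOXE3, 21.8 kb away, had no peak.

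The surroundings were examined by counting peaks in each gene and 50 kb on each side. The windows held 96 H3K4me3, 149 H3K27Ac, 88 H3K4me1 and 148 FAIRE peaks, each counted once. These numbers depended on the window and on the peaks admitted: 63 H3K4me3 peaks were left with 20 kb and 59 without those at promoters of other coding genes, 51 H3K4me1 peaks at a MACS p at or under 1e-10, and 79 FAIRE peaks once those below the median height were left out, whereas 225 FAIRE peaks were counted with 100 kb. The median member had 2 H3K4me3, 3 H3K27Ac, 1 H3K4me1 and 2 FAIRE peaks, and the medians of all coding genes were 2, 3, 1 and 3. In total the median was 9 peaks a member and 10 a coding gene, or 6.07 and 6.99 peaks per 100 kb. No peak of any list was found around 3 members, FOXI2, FOXI3 and FOXR2 (6.98%), against 7.78% of all coding genes. With 20 kb on each side this count was 7 (16.3%, against 13.0%), and without peaks at promoters of other coding genes it was also 7 (against 13.8%). FOXP1 had the most peaks of the family.

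**Figure D4:**
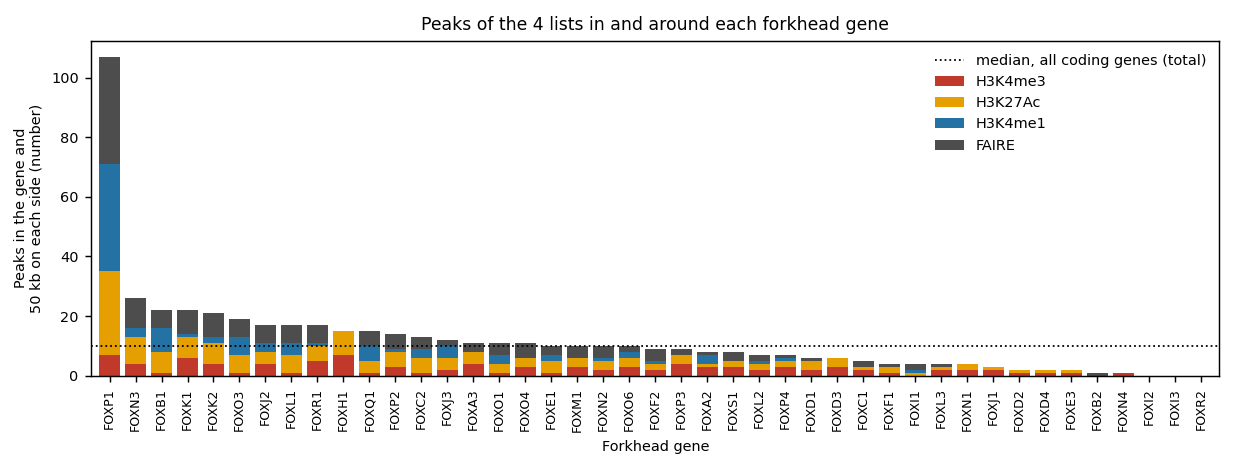
Number of peaks of the 4 lists (colours, stacked) in each forkhead gene and 50 kb on each side, with the median total of all coding genes as a dotted line at 10. FOXP1 has 107 peaks, FOXN3 has 26, and 3 members have 0.

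FOXP1 had 7 H3K4me3, 28 H3K27Ac, 36 H3K4me1 and 36 FAIRE peaks, 107 in all, and 3 coding genes had more. Without FOXP1, an alternative chosen after seeing the data, 52 H3K4me1 peaks were left in the windows. The gene is long (629286 bp), and its 14.7 peaks per 100 kb were exceeded by 2568 coding genes. FOXP2, its relative of 607446 bp, had 14 peaks, or 1.98 per 100 kb, and a single H3K4me1 peak. The genes are thus close in length and far apart in the number of peaks. FOXP1 has 67 annotated starts, at which 4 H3K4me3, 4 H3K27Ac, 8 H3K4me1 and 5 FAIRE peaks were found. Beside the 6347 bp peak of the main start, a further broad H3K4me3 peak of 5480 bp began 516838 bp downstream, and a strong H3K4me1 peak (15309 bp, score 697) began 469518 bp downstream. The widest H3K4me3 peak of FOXP2 (4907 bp) was at the upstream end of the gene, 326176 bp before the main start, and the main start had peaks of H3K4me3 (score 579) and H3K27Ac (score 148) below the medians of their lists (3100 and 591) and an H3K4me1 peak at the median of its list (score 114).

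**Figure D5:**
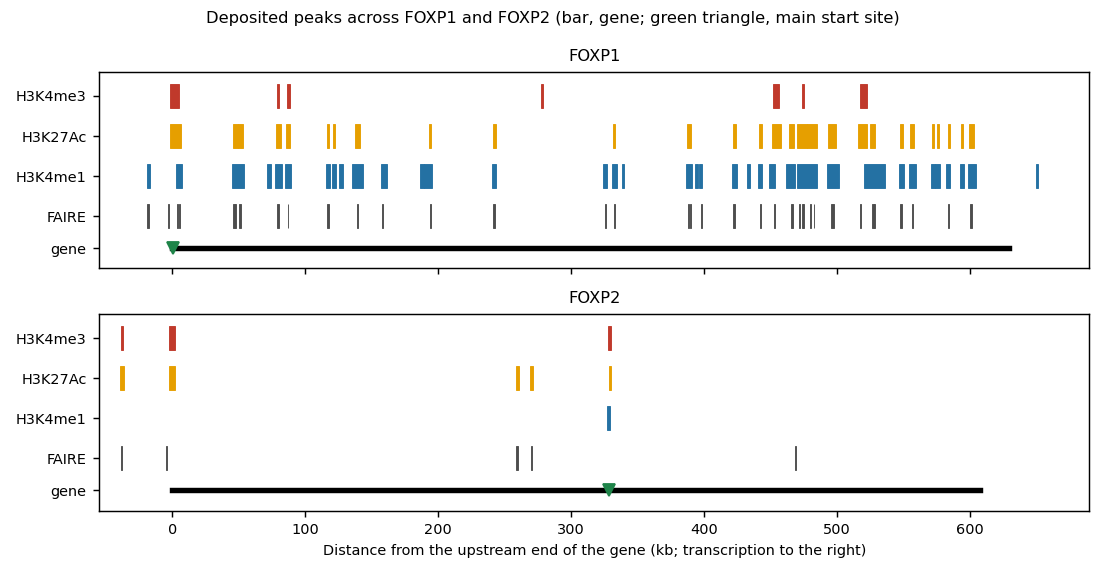
Deposited peaks of the 4 lists (rows, bars to scale) across FOXP1 and FOXP2, as distance in kb from the upstream end of each gene; black bars are the genes and triangles the main starts. FOXP1 has 36 H3K4me1 peaks and FOXP2 has 1.

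FOXN3, with 19 annotated starts, had 26 peaks, 3 of them H3K4me1, in a window of 594 kb (4.38 per 100 kb), and FOXB1 and FOXK1 had 22 each. The composition differed: FOXB1 had 1 H3K4me3, 7 H3K27Ac, 8 H3K4me1 and 6 FAIRE peaks, none of them at its promoter, whereas FOXK1 had 6 H3K4me3, 7 H3K27Ac, 1 H3K4me1 and 8 FAIRE peaks. FOXL1 had the highest density of the family, 15.9 peaks per 100 kb, without a promoter peak, and 1947 coding genes were denser. Its window held an H3K27Ac peak of 9439 bp at the score ceiling and all 13 peaks of the FOXC2 window.

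The strongest H3K4me1 peak and the tallest FAIRE peak of all windows were beside FOXQ1. The H3K4me1 peak at chr6:1321208-1329613 had a score of 759 and lay downstream of the gene, and an H3K27Ac peak of 6853 bp at the score ceiling overlapped it. The FAIRE peak at chr6:1325599-1327546 had a height of 175 and began 13266 bp from the start. A neighbouring region repeated the pattern, with H3K4me1 (score 627), H3K27Ac (5588 bp, at the ceiling) and FAIRE (height 150). None of these peaks met the promoter of a coding gene. A stretch of the tallest FAIRE peak, around its first match to TGANTCA, is shown on the plus strand of GRCh37 because this peak leads the windows, with the match in capitals. TGANTCA is looser than the core bound by AP-1 factors, which has C or G in the middle, and the match shown has A there and is not that core.
FOXQ1 downstream FAIRE peak (chr6:1326510-1326660, plus strand): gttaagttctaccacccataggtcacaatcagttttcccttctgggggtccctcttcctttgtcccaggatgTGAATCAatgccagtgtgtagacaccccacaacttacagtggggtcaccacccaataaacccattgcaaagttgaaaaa
The TGANTCA search, added after seeing the data and identical on both strands, found a match in the central 300 bases of 50 of 148 FAIRE peaks in the windows (33.8%), against 39.2% of all FAIRE peaks.

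The forkhead motif itself was searched in the same central 300 bases. TGTTTAC or GTAAACA was found in 12 of 148 FAIRE peaks (8.11%), against 6.04% of all FAIRE peaks, 4 of them in the FOXP1 window. The tallest with a match were a peak of height 137 in the FOXJ2 window, with 2 matches, and a peak of height 127 inside FOXP1. A stretch around a match of each is shown on the plus strand with the match in capitals.
FOXJ2 window (chr12:8178840-8178966, plus strand): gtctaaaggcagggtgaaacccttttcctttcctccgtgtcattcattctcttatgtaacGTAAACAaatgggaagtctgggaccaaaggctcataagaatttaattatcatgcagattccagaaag
FOXP1 window (chr3:71136091-71136217, plus strand): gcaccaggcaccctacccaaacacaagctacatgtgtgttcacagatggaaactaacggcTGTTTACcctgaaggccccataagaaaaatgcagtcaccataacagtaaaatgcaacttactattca
A match is a description of these letters, and binding was not measured.

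The H3K4me1 peaks of the windows resembled the whole list in the marks they met. Of the 88 peaks, 45 (51.1%) met H3K27Ac and FAIRE without H3K4me3, against 50.2% of all H3K4me1 peaks. A further 12 (13.6%, against 15.6%) met H3K4me3, and 15 (17.0%, against 13.6%) met no other list. FOXP1 contributed 15 of the 45 and 7 of the 15.

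Genes that act with forkhead factors were counted in the same way, beside 67.2% of all coding genes with H3K4me3, 63.3% with H3K27Ac and 39.3% with FAIRE. All 14 mitotic targets of FOXM1 had H3K4me3 and H3K27Ac and 12 had FAIRE, with the widest H3K4me3 peaks at CKS1B (8339 bp), AURKA (4108 bp) and CDC20 (4011 bp). All 14 FOXO targets had both histone marks and 8 had FAIRE, led by KLF6 (9265 bp), the cell cycle inhibitor CDKN1B (6122 bp) and the BH3-only gene PMAIP1 (5211 bp). All 13 FOXO regulators had both marks and 11 had FAIRE, led by STK3 (7106 bp), YWHAZ (6278 bp) and EP300 (4995 bp). Of 12 cofactors, 11 had H3K4me3, 10 H3K27Ac and 4 FAIRE, with SIN3A (8254 bp), TLE3 (7695 bp) and SMAD3 (6751 bp) widest. Among the Groucho corepressors TLE4 had no promoter peak and TLE2 had H3K4me3 without H3K27Ac. H3K4me1 was present at 4 of 14, 7 of 14, 5 of 13 and 5 of 12 genes of these lists in the same order, against 20% of all coding genes. Median H3K4me3 widths were 3392, 4159, 3819 and 5102 bp in these lists, against 3684 bp for the forkhead genes and 2973 bp for all coding genes.

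Markers of the line were examined in the same way. H3K27Ac was present at all 8 mesenchymal markers and H3K4me3 at 7, with SPARC the exception. Of 8 luminal or epithelial markers, ESR1, PGR and ESRP1 had H3K4me3 without H3K27Ac, and CDH1 and TFF1 had H3K27Ac without H3K4me3. EPCAM and KRT8 carried all 4 lists and GATA3 carried both H3K4me3 and H3K27Ac, so each of the 8 had H3K4me3 or H3K27Ac at its promoter in this mesenchymal-type line. Of 7 matched markers of other cell types, 6 had no promoter peak and GFAP had H3K4me3, H3K27Ac and FAIRE. The part of other cells in the forkhead peaks was not tested.

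Counts of members with promoter H3K4me3 or H3K27Ac stayed within 1.5 times under every alternative tried, and those of H3K4me1 and FAIRE did not. H3K4me3 was counted at 21 to 26 members (main count 23) and H3K27Ac at 16 to 24 (main count 21). The band of 1.5 times is wider than the gaps between members and all coding genes in these marks, so those gaps were not tested by it. With promoters of 2 kb, 7 members had H3K4me1 (16.3%, against 22.3% of all coding genes), through FOXJ3, FOXO3, FOXP4 and FOXQ1, and with the most upstream start alone 0 had it, against 11.8%.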

How the data were processed

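ChIP-seq for H3K4me1, H3K4me3 and H3K27Ac and FAIRE-seq were analysed from MDAMB231 cells, 2 samples each. Per the methods of the study, reads were aligned to GRCh37 with BWA, filtered for duplicates and mapping quality, and peaks were called against input with MACS and FindPeaks. The sample records name TopHat and HOMER as processing tools, and which aligner lay behind the deposited lists was not settled here. The study analysed the 2 samples of each assay separately before combining them, and each deposited list was taken here to come from the combined samples. For histone marks the deposited score equals minus 10 times the log10 of the p-value from MACS, and the deposited FAIRE value is the height of the peak signal. Starts were taken as counted from 0. Depth per library was not used here.

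Overlaps of at least 1 base with GENCODE 44 genes on GRCh37 were counted with Python 3.11.15, numpy 2.4.6 and pandas 2.3.3 and checked against bedtools 2.31.1 on simulated intervals, and figures were drawn with matplotlib 3.10.9. Sequences were read from the GRCh37 assembly. No test was run: lists are described by counts beside all coding genes. Each member was named with its promoter class, and values were given for broad members, members with H3K4me3 without H3K27Ac or a promoter peak without H3K4me3, members with all 4 lists and the 3 with most peaks around the gene (ties included). Partners and targets were named where they lacked H3K4me3 or were among the 3 widest of their list, and other values were chosen after they were seen. Members and lists were chosen with earlier results of these data known. The alternatives were other promoter and window widths, starts, overlap by peak centre, a MACS p at or under 1e-10, taller FAIRE peaks and other widths of broad H3K4me3. Further alternatives left out peaks at promoters of other coding genes, looked for H3K27Ac under the H3K4me3 peak, or left out FOXP1. 2 genes of the family are not reported here.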

Additional observations from a re-analysis of the deposited data

How the results depend on the processing

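Of 79 counts under alternatives, 65 were within 1.5 times of the main count, including every count of members with promoter H3K4me3 or H3K27Ac and of members without a promoter peak. Members without a promoter peak were 14 with promoters of 2 kb and 21 with the peak centre required in the promoter, against 18. Members with promoter H3K4me1 were 7 with promoters of 2 kb and 0 with the most upstream start alone, against 3. Members with promoter FAIRE were 6 with the most upstream start and 5 with taller FAIRE peaks, against 11. With the peak centre required in the promoter, 5 members had H3K4me3 without H3K27Ac, against 3. With 4 kb as the threshold 9 members had broad H3K4me3, against 5. H3K4me1 peaks in the windows were 51 at a MACS p at or under 1e-10 and 52 without FOXP1, against 88 (the count without FOXP1 was added after seeing the data), and FAIRE peaks were 79 with taller peaks and 225 with 100 kb, against 148. H3K4me3 peaks in the windows were 63 with 20 kb and 59 without those at promoters of other coding genes, against 96. Members without a peak in the window were 7 with 20 kb and 7 without peaks at other promoters, against 3. The cause of these shifts was not tested beyond the change in window, start or threshold itself.

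No paired analysis was possible because samples were combined into 1 list per assay, which also prevents leaving out a sample. Whether a peak is present in each sample, and how depth limits the absence of a peak, was not tested.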
